A study of Mus musculus with 6 samples.

Results

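The 55 genes described here encode proteins that carry a cell through mitosis: the kinases and cyclins that start it, the checkpoint and the machinery that separates sister chromatids, the kinetochores, the condensed chromosomes, the spindle with its motors, and cytokinesis. The members were chosen by name as a module of mitosis and chromosome segregation genes, with earlier results of these data known. Counts and medians over the members are therefore descriptions of a chosen set. All 55 were found among the 15469 genes of the deposited table, 54 under the name given and Sgol1 under its present symbol, Sgo1. All 55 were among the 11424 genes with enough counts to be tested. In the 3 control libraries alone, 48 of them reached the level the filter asks for (0.554 CPM, the count scaled to a common library size). The other 7, Cdc25c, Dlgap5, Hmmr, Kif4, Sgo1, Spc24 and Ttk, were kept only because the other group was higher, so their counts in the controls are low.

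RNA was sequenced from 6 libraries of macrophages washed from the peritoneal cavity of mice, where they are the main resident phagocytes. The animals belonged to the CAIA model, which the labels give only as an abbreviation, and the cells of both groups had been sorted for RELM-α, a secreted resistin-like protein, and plated in culture. The group labelled KO held 3 libraries of cells described as deleted for PU.1, the ETS-family transcription factor encoded by Spi1 that macrophages need to develop, and the group labelled WT held 3 libraries of control cells. The stated question of the series is the part PU.1 plays in ferroptosis, a cell death driven by iron and oxidised lipids. The labels name no strain, age, sex, allele or agent of deletion for either group, and they do not say whether the libraries of a group are from different animals or cultures. The p-values therefore speak only of the spread among these 6 samples, part or all of which may be technical. Libraries are named below by label and number, as KO_1 or WT_1.

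The libraries held between 17280855 and 18632623 counts. Spi1 itself was not lower in the group labelled KO: it lay between 276.9 and 319.7 CPM there and between 283.7 and 340.2 CPM in WT (log2 difference KO minus WT of -0.10, SE 0.106, adjusted p = 0.561, edgeR). The table therefore does not show the loss of Spi1 transcripts, and every direction below is that of the libraries labelled KO against those labelled WT. Summed over 4 Y-linked genes, the KO libraries held 1 to 8 counts and the WT libraries 2158 to 2854, so the label and the sex of the animals cannot be told apart. One library stood apart from its group. On the first principal component of all tested genes (71.1% of the variance) KO_1 lay at -22.4, near the WT libraries (-44.9 to -30.8), while KO_2 and KO_3 lay at 73.2 and 57.5. The main counts below are therefore also given without KO_1.

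Entry into mitosis is driven by CDK1 bound to its cyclins, which CDC25 phosphatases switch on and Polo-like and Aurora kinases amplify. Sister chromatids, compacted by condensin and topoisomerase II, are caught by spindle microtubules at their kinetochores. The spindle checkpoint holds back the anaphase-promoting complex until each kinetochore is attached, after which cohesin is cut and the central spindle directs cytokinesis. Most of these genes are transcribed late in the cell cycle and are silent or low in resting cells, and tissue macrophages can divide in place. Their promoters are known for a cell cycle genes homology region (CHR, with the letters TTTGAA), bound by the MuvB core with B-MYB and FOXM1 in dividing cells and with DREAM repressors in resting ones, and for CCAAT boxes bound by NF-Y.

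Promoter sequences are shown because these letters are what many members have in common and the choice of members did not use them. The RefSeq promoter table (GRCm38.p6, 250 bases before to 50 after each gene start) held 46 promoters of 44 members. In 36 of the 46 the RefSeq start lay within 100 bases of the edge of the gene's span in the deposited table, and in 10, among them those of Ect2 and Sgo1, it lay further inside. For Kif11 and Nek2 the deposited span is too long to be 1 gene, and for Mki67, Anln and Ndc80 its strand differs from that of RefSeq, so starts and strands here are those of RefSeq. In the sequences below, written 5′ to 3′ on the gene's own strand, capitals mark TTTGAA and CCAAT on either strand (TTCAAA and ATTGG on the other). Base 251 is the gene start. The first 4 are the called members with the highest counts that hold both motifs, Mki67 (chr7:135716330-135716629, minus strand), Top2a (chr11:99024140-99024439, minus strand), Kif23 (chr9:61946750-61947049, minus strand) and Kif11 (chr19:37376132-37376431, plus strand).
Mki67: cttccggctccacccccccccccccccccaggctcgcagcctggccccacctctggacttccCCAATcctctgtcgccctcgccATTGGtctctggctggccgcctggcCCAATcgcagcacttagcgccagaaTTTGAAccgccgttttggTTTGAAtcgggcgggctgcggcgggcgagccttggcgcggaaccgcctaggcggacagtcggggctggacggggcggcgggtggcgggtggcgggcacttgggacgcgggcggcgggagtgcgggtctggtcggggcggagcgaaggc
Top2a: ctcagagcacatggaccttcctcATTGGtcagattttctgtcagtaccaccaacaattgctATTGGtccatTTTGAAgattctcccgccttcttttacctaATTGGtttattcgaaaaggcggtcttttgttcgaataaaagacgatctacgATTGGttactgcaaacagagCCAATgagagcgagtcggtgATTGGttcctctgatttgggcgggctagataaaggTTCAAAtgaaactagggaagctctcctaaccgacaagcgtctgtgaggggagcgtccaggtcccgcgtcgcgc
Kif23: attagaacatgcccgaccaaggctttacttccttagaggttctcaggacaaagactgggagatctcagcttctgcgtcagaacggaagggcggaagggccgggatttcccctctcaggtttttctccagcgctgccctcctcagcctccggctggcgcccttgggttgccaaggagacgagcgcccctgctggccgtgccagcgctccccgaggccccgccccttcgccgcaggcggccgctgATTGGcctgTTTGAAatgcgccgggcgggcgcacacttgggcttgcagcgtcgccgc
Kif11: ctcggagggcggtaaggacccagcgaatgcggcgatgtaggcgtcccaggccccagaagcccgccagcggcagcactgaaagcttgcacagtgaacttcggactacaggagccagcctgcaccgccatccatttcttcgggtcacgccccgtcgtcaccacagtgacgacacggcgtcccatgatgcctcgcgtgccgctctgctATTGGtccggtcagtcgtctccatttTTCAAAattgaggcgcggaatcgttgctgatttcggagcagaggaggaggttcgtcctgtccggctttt
The next 3 were chosen after their values were seen. Ccnb2 (chr9:70421505-70421804, minus strand) and Cdc20 (chr4:118437294-118437593, minus strand) had some of the steepest differences, and Tubb4b (chr2:25224653-25224952, minus strand) holds the same letters in a gene whose groups overlapped.
Ccnb2: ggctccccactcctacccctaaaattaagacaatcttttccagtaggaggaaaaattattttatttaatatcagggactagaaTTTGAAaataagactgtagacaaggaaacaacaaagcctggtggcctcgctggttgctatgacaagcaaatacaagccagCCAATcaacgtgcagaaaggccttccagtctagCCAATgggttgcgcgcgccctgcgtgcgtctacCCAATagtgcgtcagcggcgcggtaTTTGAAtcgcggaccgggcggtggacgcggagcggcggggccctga
Cdc20: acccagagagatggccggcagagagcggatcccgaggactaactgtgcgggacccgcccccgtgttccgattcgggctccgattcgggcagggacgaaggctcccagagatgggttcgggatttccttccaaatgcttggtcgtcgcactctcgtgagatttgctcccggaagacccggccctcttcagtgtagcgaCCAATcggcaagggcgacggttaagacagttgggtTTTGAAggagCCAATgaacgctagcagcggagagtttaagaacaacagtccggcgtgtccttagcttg
Tubb4b: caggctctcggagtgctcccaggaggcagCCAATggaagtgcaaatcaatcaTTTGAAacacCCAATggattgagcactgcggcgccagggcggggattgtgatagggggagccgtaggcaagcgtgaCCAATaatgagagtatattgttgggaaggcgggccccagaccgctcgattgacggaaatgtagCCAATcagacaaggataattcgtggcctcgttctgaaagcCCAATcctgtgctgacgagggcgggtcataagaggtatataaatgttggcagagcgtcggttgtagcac

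TTTGAA stood in 71.7% of the members' promoters (33 of 46), against 17.9% of all 32851 promoters in the table and 12.2% of the 11847 promoters of tested genes. CCAAT stood in 76.1% (35 of 46), against 37.4% and 38.1%. Both stood in 63.0% (29 of 46), against 6.95% and 5.10%; 1 pair of matches shared a base. Position differed as well as frequency. Within 50 bases of the start, TTTGAA was present in 63.0% of member promoters and 4.94% of all promoters, with a median position 5 bases after the start. Where both were present, the nearest CCAAT lay upstream of the CHR in 25 of 29 promoters, at a median distance of 32 bases. In Ccnb2, for example, CCAAT recurs ahead of a CHR 5 bases after the start, while in Tubb4b the only TTTGAA lies far upstream, 198 bases before it. Other members differ from this pair. Cenpa and Smc2, whose groups overlapped, hold a CHR 17 and 27 bases after the start. The called Mki67 holds it only at 116 and 98 bases before. Whether position goes with the differences between groups was not tested. An E2F-type site (TTCCCGC) stood in 2.17% of member promoters against 4.60% of all. The PU box core GAGGAA, a short form of the letters that ETS factors such as PU.1 bind, stood in 28.3% of both. All motifs were searched on both strands. A match is a description of letters and not a bound site, and 11 members had no entry in the table.

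**Figure D1:**
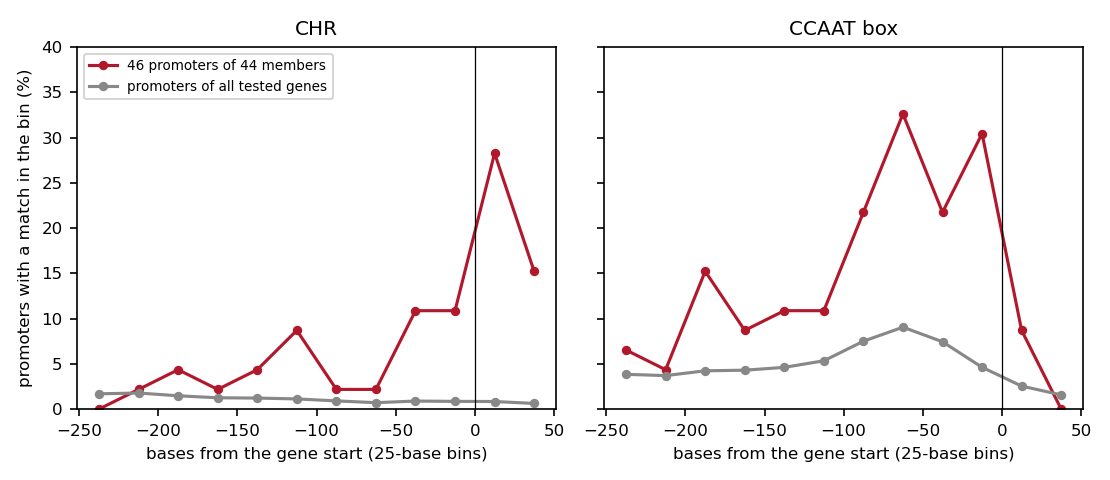
Share of promoters (%) with a CHR match (left) or a CCAAT match (right) in each 25-base bin, by distance in bases from the gene start (vertical line), for 46 promoters of 44 members (red) and for the promoters of all tested genes (grey). The members' CHR matches peak just after the start, at 28.3% of promoters in the first 25 bases, and their CCAAT matches peak upstream, at 32.6% between 75 and 50 bases before it.

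Mean levels of the mitotic transcripts were higher in the libraries labelled KO for nearly the whole module, but few members passed the test. Of the 55 members, 9 rose in the edgeR test over all 6 libraries: Mki67, Top2a, Sgo1, Cenpf, Ncapg, Kif11, Hmmr, Kif23 and Ect2. None fell, and 46 did not pass the threshold (adjusted p under 0.05). Among all genes tested, 3.32% were called, 2.26% higher and 1.06% lower, and the members' count was 9 of 55. Of the 48 members that reach the filter level in WT alone, 7 were called higher. The median log2 difference of the members was 2.70, against -0.01 for all genes tested. For 54 of 55 the difference was positive, and for 41 it was at least 2 on the log2 scale, of which 34 were not called. At an unadjusted p under 0.05, 50 members were higher, where 15.0% of all genes were. In 50 members all 3 KO libraries lay above all 3 WT libraries, against 18.4% of all genes, and in 0 members did all KO libraries lie below, against 12.6%. The 5 whose groups overlapped were Pttg1, Cenpa, Smc2, Smc4 and Tubb4b. Of the 48 just named, 43 did not overlap, and their median log2 difference was 2.62.

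The summed level of the 55 members, in TPM, which scales counts to transcript length and library size, was 516, 1737 and 1579 in KO_1, KO_2 and KO_3, and 368, 364 and 368 in WT_1, WT_2 and WT_3. The controls agreed closely, and KO_1 lay between them and its own group. In the median member KO_1 was at 2.15 times the WT mean, KO_2 at 8.96 times and KO_3 at 8.75 times. KO_1 exceeded every WT library in 52 members (35.8% of all genes), and was at least 2-fold above the WT mean in 30 (5.02% of all genes). It was the lowest of the 3 KO libraries in 49 members (44.5% of all genes), and KO_2 was in the other 6. KO_2 and KO_3 were both at least 2-fold above the WT mean in 49 members (5.44% of all genes). In bulk RNA, more dividing cells and more RNA per dividing cell cannot be told apart.

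**Figure D2:**
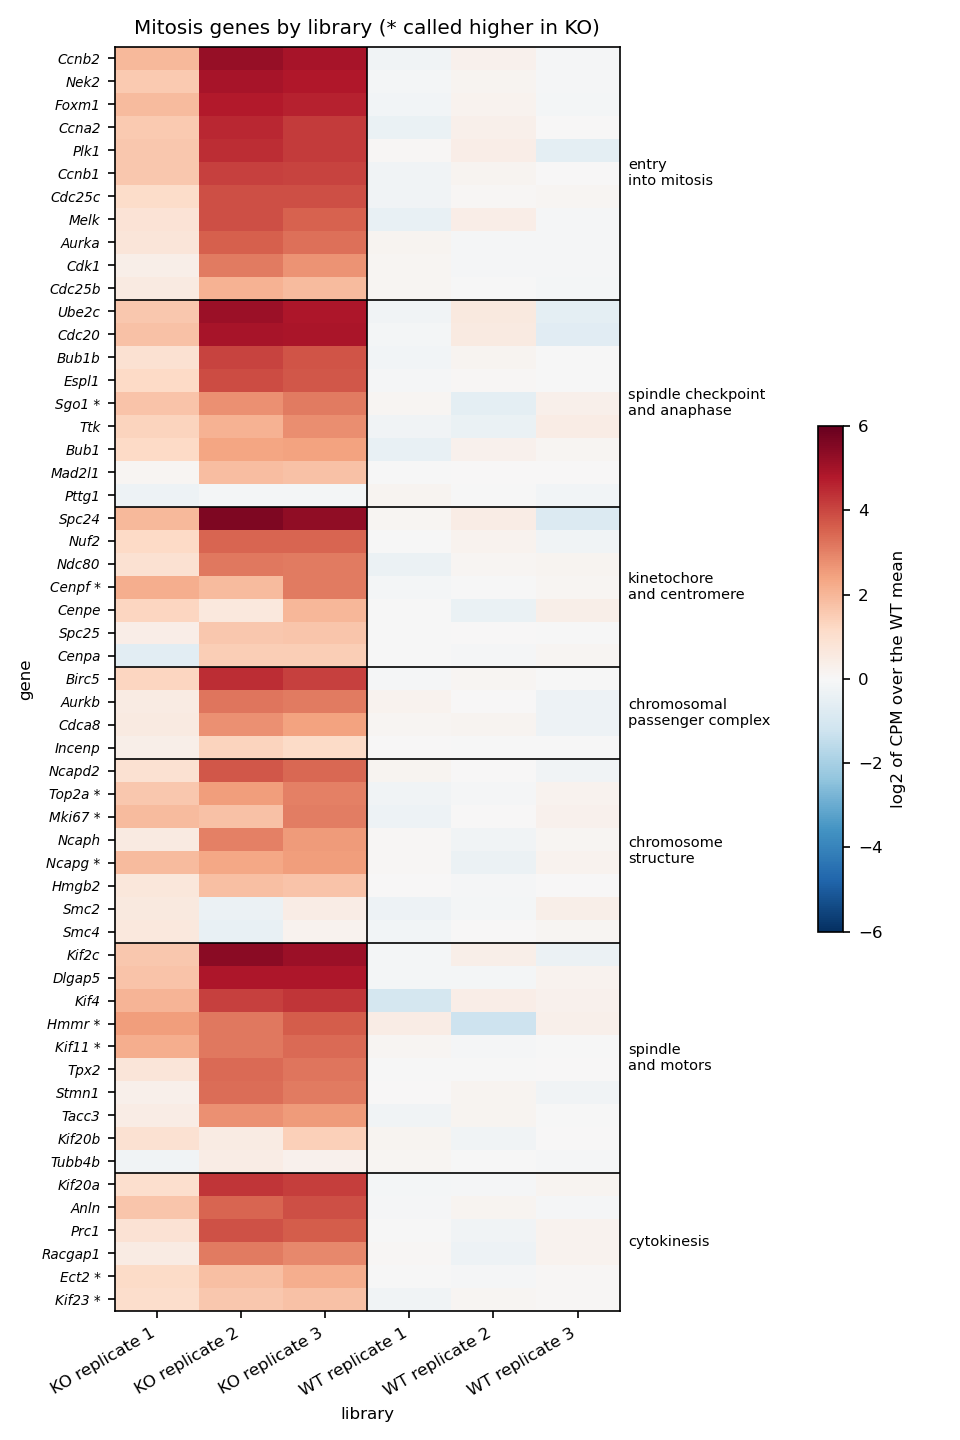
Level of each of the 55 members in each of the 6 libraries, as the log2 ratio of its CPM to the WT mean, with members grouped by role. KO_2 and KO_3 are high across all roles, KO_1 is raised to a smaller degree in most members, and the 3 WT libraries are even. Pttg1, Cenpa, Smc2, Smc4 and Tubb4b do not separate the groups, and in Cenpa KO_1 lies below every WT library.

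The number of members called depended on how the spread was estimated and on which libraries entered. DESeq2 called 49 members higher (7.12% of all genes tested were), and 49 were also higher at a q-value under 0.05 in the authors' deposited table, where 5.28% of all genes were. limma-voom called 4, Kif11, Ncapg, Hmmr and Kif23, where 2% of all genes were called higher. Without KO_1, edgeR called 52 of 55 higher, but 23.6% of all genes were then called higher and 26.0% lower. Leaving out any other single library, KO_2, KO_3, WT_1, WT_2 or WT_3, left 0 members called in either direction with edgeR. Those fits called hardly any gene, with 0.0256% to 0.0606% of all genes higher, so the 0 is not particular to the members. In them 47 to 49 members kept an unadjusted p under 0.05, and the share of all genes at that level was not counted. By role, the fit without KO_1 called higher 11 of 11 genes of mitotic entry, 8 of 9 of checkpoint and anaphase, 7 of 7 of the kinetochore and 4 of 4 of the passenger complex. It called 6 of 8 of chromosome structure, 10 of 10 of the spindle and 6 of 6 of cytokinesis; Pttg1, Smc2 and Smc4 were the 3 not called. No fit called any member lower, and the members' median log2 difference stayed between 2.41 and 3.33 over all fits.

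The 11 genes of mitotic entry had the largest median difference of the 7 roles, 3.62 on the log2 scale, yet none passed the test over 6 libraries. In all 11 the groups did not overlap, and their adjusted p ran from 0.0543 for Foxm1 to 0.111 for Cdk1 (edgeR). Cdc25b, a phosphatase that activates CDK1, had the most counts: 24.7, 70.5 and 62.5 CPM in the KO libraries and 18.4, 16.5 and 15.5 CPM in WT. Every KO library was above every WT library, with KO_1 close to them (log2 difference 1.65, SE 0.397, adjusted p = 0.0873). Ccnb2, cyclin B2, was at 4.84, 46.9 and 38.6 CPM in KO and 1.10, 1.502 and 1.20 CPM in WT, 23.7-fold between the group means. Its KO_1 level lay far nearer the controls than to KO_2 and KO_3, and its adjusted p was 0.0587 (log2 difference 4.56, SE 0.901). Foxm1, the transcription factor that acts at CHR promoters, was at 6.77, 48.5 and 43.9 CPM in KO and 1.63, 2.08 and 1.68 CPM in WT. Plk1, the Polo-like kinase, was at 5.83, 40.9 and 35.0 CPM against 1.98, 2.48 and 1.26 CPM. Both show the same split, with KO_1 somewhat above the controls and the other KO libraries far above them. Cdk1, the kinase itself, had the weakest evidence of the role: 9.96, 68.0 and 49.6 CPM in KO and 8.49, 7.45 and 7.33 CPM in WT. There KO_1 was only just above the controls. The remaining entry genes, Ccna2 and Ccnb1 (cyclins A2 and B1), Cdc25c (a second CDK1 phosphatase), Aurka (the Aurora kinase of spindle poles), Nek2 (a centrosome kinase) and Melk (a kinase of dividing cells), were 7.81-fold to 20.7-fold higher between group means. Without KO_1, all 11 entry genes were called higher, in a fit that called 23.6% of all genes higher.

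Of the 9 genes of the spindle checkpoint and of anaphase, 1 rose and none fell, with a median log2 difference of 2.63. Sgo1, shugoshin, which shields cohesin at the centromere, was at 1.43, 2.93 and 3.75 CPM in KO and 0.465, 0.289 and 0.541 CPM in WT. The groups did not overlap (log2 difference 2.63, SE 0.474, adjusted p = 0.0468, edgeR), but the controls held only 5 to 9 counts each. From totals of 155 and 22 counts the KO to WT ratio was 6.34, with an exact 95% interval of 4.04 to 10.4 that covers counting error only. Bub1b, the checkpoint protein BUBR1, had the most counts of the role, at 7.71, 66.5 and 55.5 CPM in KO and 3.66, 4.56 and 3.96 CPM in WT. KO_1 was about 2 times the control mean and the other KO libraries far above it (log2 difference 3.41, SE 0.798, adjusted p = 0.0825). Cdc20, the activator of the anaphase-promoting complex, was at 4.18, 38.2 and 37.4 CPM against 1.16, 1.79 and 0.781 CPM. Ube2c, the ubiquitin-conjugating enzyme of that complex, was at 4.24, 47.0 and 38.9 CPM against 1.16, 2.02 and 0.901 CPM. These were among the steepest members, 21.4-fold and 22.1-fold between group means, with adjusted p of 0.0667 and 0.0701. Bub1 and Ttk, 2 further checkpoint kinases, Espl1, the protease separase that cuts cohesin, and Mad2l1, the checkpoint protein MAD2, were 2.67-fold to 10.3-fold higher without overlap between the groups.

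Pttg1, securin, the inhibitor that separase must lose before it can act, was the exception of the whole module. It was at 14.7, 16.5 and 16.99 CPM in KO and 20.2, 17.8 and 16.5 CPM in WT. The groups overlapped, and its log2 difference was -0.18 with a 95% interval of -0.49 to 0.13 (adjusted p = 0.423, edgeR). It was the only member with a negative difference over the 6 libraries. Espl1, its target, was at 4.95, 32.9 and 29.0 CPM in KO and 2.09, 2.25 and 2.16 CPM in WT.

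Among the 7 kinetochore and centromere genes, Cenpf rose and none fell, with a median log2 difference of 2.5. Cenpf, a large protein of the outer kinetochore, was at 4.84, 3.95 and 9.23 CPM in KO and 0.989, 1.04 and 1.14 CPM in WT. Here KO_1 was not the lowest of its group, and all KO libraries stood clear of the controls (log2 difference 2.5, SE 0.388, adjusted p = 0.0376, edgeR). Cenpe, the kinetochore motor, had the same order of the KO libraries, at 6.27, 4.005 and 10.5 CPM in KO and 2.56, 1.96 and 3.30 CPM in WT, and did not pass (adjusted p = 0.121). The NDC80 complex, which holds the microtubule end, has 4 subunits and all are members. Spc24 was at 0.826, 10.4 and 8.65 CPM in KO and 0.233, 0.289 and 0.120 CPM in WT, the steepest difference of the module. Its controls held 11 counts in all, against 384 in KO, a ratio of 31.4 with an exact 95% interval of 17.4 to 63.5 for counting error only, and its adjusted p was 0.0717. Ndc80, Nuf2 and Spc25 were 6.55-fold, 8.26-fold and 2.51-fold higher between group means, without overlap. Cenpa, the histone H3 variant that marks the centromere, had the most counts and did not separate the groups: 9.69, 42.1 and 41.3 CPM in KO and 14.5, 14.3 and 16.2 CPM in WT. KO_1 lay below every control and KO_2 and KO_3 above (log2 difference 1.05, SE 0.539, adjusted p = 0.302). Without KO_1 its log2 difference was 1.49 and it was called (adjusted p = 3.6e-05, edgeR).

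None of the 4 subunits of the chromosomal passenger complex, which corrects wrong attachments and later guides cytokinesis, passed the test, with a median log2 difference of 2.43. Incenp, the scaffold, was at 66.2, 130 and 113 CPM in KO and 52.1, 51.5 and 51.4 CPM in WT. The controls lay within 1 CPM of each other and all KO libraries were higher, with a group difference of 1.99-fold (log2 difference 0.996, SE 0.250, adjusted p = 0.0935, edgeR). Birc5 (survivin), Aurkb (the kinase) and Cdca8 (borealin) were 13.9-fold, 6.46-fold and 4.49-fold higher between group means, again without overlap. In Aurkb KO_1 was at 5.23 CPM, next to 4.25 CPM in WT_1, while KO_2 and KO_3 were at 33.6 and 32.2 CPM.

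Chromosome structure was the role with most called members, 3 of 8, and none fell. Mki67, the surfactant-like coat protein of mitotic chromosomes used to score dividing cells, was at 45.6, 41.1 and 102 CPM in KO and 9.71, 12.2 and 14.5 CPM in WT. All KO libraries stood clear of WT, KO_3 highest (log2 difference 2.37, SE 0.412, adjusted p = 0.0464, edgeR). Top2a, topoisomerase II alpha, was at 25.04, 46.6 and 66.4 CPM in KO and 7.15, 7.97 and 9.67 CPM in WT. It rose by 2.48 on the log2 scale (SE 0.380, adjusted p = 0.0387). Ncapg, a condensin I subunit, was at 3.85, 5.24 and 5.94 CPM in KO and 1.10, 0.809 and 1.20 CPM in WT. Its KO libraries were close together, and its SE, 0.283, was below that of every other called member but Kif23 (log2 difference 2.27, adjusted p = 0.0219).

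The 5 condensin subunits among the members did not share 1 pattern. Ncapd2 and Ncaph, which like Ncapg belong to condensin I alone, were at 103 and 41.1 CPM in KO_2 and at 83.8 and 30.4 CPM in KO_3, against WT means of 7.73 and 5.11 CPM. The core ATPases Smc2 and Smc4, shared with condensin II, overlapped between the groups. Smc2 was at 16.95, 8.73 and 15.3 CPM in KO and 9.07, 10.2 and 14.2 CPM in WT. Smc4 was at 33.3, 15.9 and 24.6 CPM in KO and 19.02, 21.9 and 23.2 CPM in WT. In both KO_1 was the highest library of all 6 and KO_2 the lowest. Their log2 differences were 0.29 (95% interval -0.45 to 1.03) and 0.20 (-0.47 to 0.88), and that of Smc4 was -0.064 without KO_1. Hmgb2, a DNA-bending chromatin protein, was 2.81-fold higher without overlap (adjusted p = 0.0619, edgeR).

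Of the 10 genes of the spindle and its motors, Kif11 and Hmmr rose and none fell, with a median log2 difference of 2.91. Kif11, the kinesin that pushes the spindle poles apart, was at 5.78, 11.6 and 13.8 CPM in KO and 1.40, 1.21 and 1.26 CPM in WT. The controls were tight and KO_1 was well above them, and Kif11 had the smallest adjusted p of all members (0.0217, log2 difference 3.002, SE 0.371, edgeR). Hmmr, a spindle assembly and hyaluronan-binding protein, was at 3.96, 6.06 and 8.39 CPM in KO and 0.930, 0.289 and 0.841 CPM in WT. Its controls held 35 counts in all against 351, a ratio of 9.03 with an exact 95% interval of 6.37 to 13.2 (log2 difference 3.15, SE 0.504, adjusted p = 0.0389). Kif2c, the kinesin that takes microtubules apart at the centromere, was at 2.37, 32.8 and 26.3 CPM in KO and 0.698, 0.982 and 0.601 CPM in WT. It was 26.9-fold higher between group means, but with KO_1 so far below the other KO libraries its SE was 1.03 and its adjusted p 0.0701. Dlgap5, a spindle-fibre protein, was at 1.87, 16.5 and 16.6 CPM in KO and 0.523, 0.520 and 0.661 CPM in WT, with an adjusted p of 0.0646. Kif4, the chromokinesin (an X-linked gene), Tpx2, the activator of Aurora A, Tacc3, a spindle protein, Stmn1, stathmin, which destabilises microtubules, and Kif20b, a kinesin of late mitosis, were 1.99-fold to 13.5-fold higher without overlap. Tubb4b, a beta-tubulin that resting cells also make, was at 103, 162 and 142 CPM in KO and 130, 117 and 113 CPM in WT. Its groups overlapped (log2 difference 0.18, 95% interval -0.25 to 0.62). Without KO_1, its lowest library, it was called higher at 0.36 (adjusted p = 0.0157, edgeR).

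Of the 6 cytokinesis genes, Kif23 and Ect2 rose and none fell, and the groups did not overlap in any. Kif23, the kinesin subunit of the centralspindlin complex, was at 13.2, 20.0 and 21.5 CPM in KO and 5.58, 7.10 and 6.67 CPM in WT. Its difference was among the smaller ones of the module but had the smallest SE of the called members (log2 difference 1.497, SE 0.225, adjusted p = 0.0334, edgeR). Ect2, the exchange factor that switches on RhoA at the cell equator, was at 4.13, 6.57 and 8.55 CPM in KO and 1.80, 1.79 and 1.98 CPM in WT (log2 difference 1.78, SE 0.311, adjusted p = 0.0447). Racgap1, the partner of Kif23, was at 11.6, 72.0 and 61.4 CPM in KO and 8.61, 6.76 and 9.55 CPM in WT. Its KO_1 level was close to WT_3, and it was not called (log2 difference 2.54, SE 0.674, adjusted p = 0.104). Anln (anillin), Prc1 (the bundler of central spindle microtubules) and Kif20a (a motor of the central spindle) were 9.46-fold to 13.0-fold higher between group means. Anln came closest to the threshold, with an adjusted p of 0.0510.

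**Figure D3:**
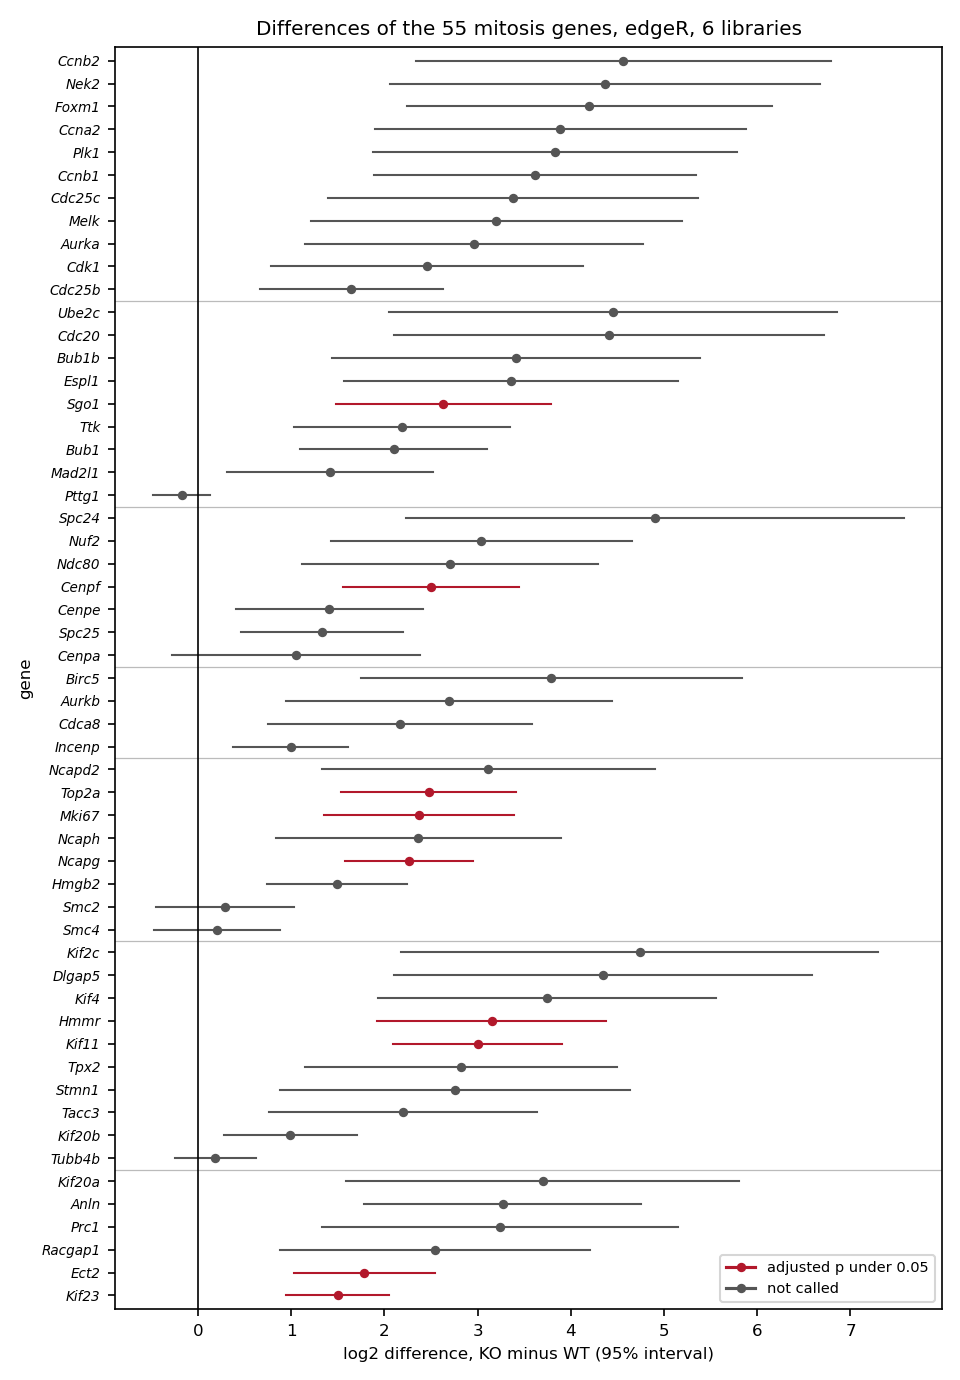
Log2 difference KO minus WT with its 95% interval for each of the 55 members, grouped by role (edgeR, 6 libraries), with the 9 called members marked. The called members are not those with the largest differences; their intervals are narrow for their size. Kif23 is called at 1.497, while Spc24 at 4.91 is not.

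The members with the steepest differences were not the ones called. A KO_1 far from KO_2 and KO_3 widens the SE, so the call itself partly selects for the position of KO_1, and the values by call are given as a description. In the 9 called members KO_1 was at 2.05 to 5.77 times the WT mean (median 3.71), and the mean of KO_2 and KO_3 was 1.36 to 2.33 times KO_1. In the 46 that were not called, KO_1 was at a median of 1.89 times the WT mean, and KO_2 and KO_3 were at a median of 5.81 times KO_1. The median SE was 0.380 in the first set and 0.689 in the second. Their transcripts differed as well. The called members had a median transcript length of 4086 bases and a median GC content of 42.2%, against 2960 bases and 48.0% in the others. Across the 55 members the log2 ratio of KO_2 and KO_3 to KO_1 correlated with GC content at a Spearman rho of 0.596 and with length at -0.357. These correlations are across genes, which share the libraries and are not independent replicates. The same ratio followed the same properties across 11253 tested genes, at 0.408 for GC content and -0.223 for length. In the decile of all genes with the lowest GC content (median 40%) the median log2 ratio was -1.41, and in each of the 7 highest deciles it lay between 0.01 and 0.18. The members' median log2 ratio was 2.16, against 0.01 for all genes. How much of the difference between KO_1 and the other KO libraries goes with GC content and length, rather than with mitosis, was not tested. After smooth terms for both properties had been taken out in each library, an alternative added after seeing the data, 20 of 55 members were called higher (3.40% of all genes) and 53 of 55 without KO_1 (22.9% of all genes). Of the 9 members called before, 8 were among the 20, and Ect2 was not (adjusted p = 0.0539, edgeR). The fold of 12 members was over 1.5 times larger in that fit, and of 0 members over 1.5 times smaller. Mad2l1 had a log2 difference of 2.54 there against 1.42 before, Hmgb2 2.60 against 1.49, and Ect2 2.71 against 1.78. Kif20b was at 1.87 against 0.99, Smc2 at 1.07 against 0.29 and Smc4 at 0.87 against 0.20. The others of the 12 were Bub1, Sgo1, Nuf2, Ncapg, Kif11 and Hmmr. Pttg1 was at -0.10 against -0.18 and Tubb4b at 0.07 against 0.18.

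**Figure D4:**
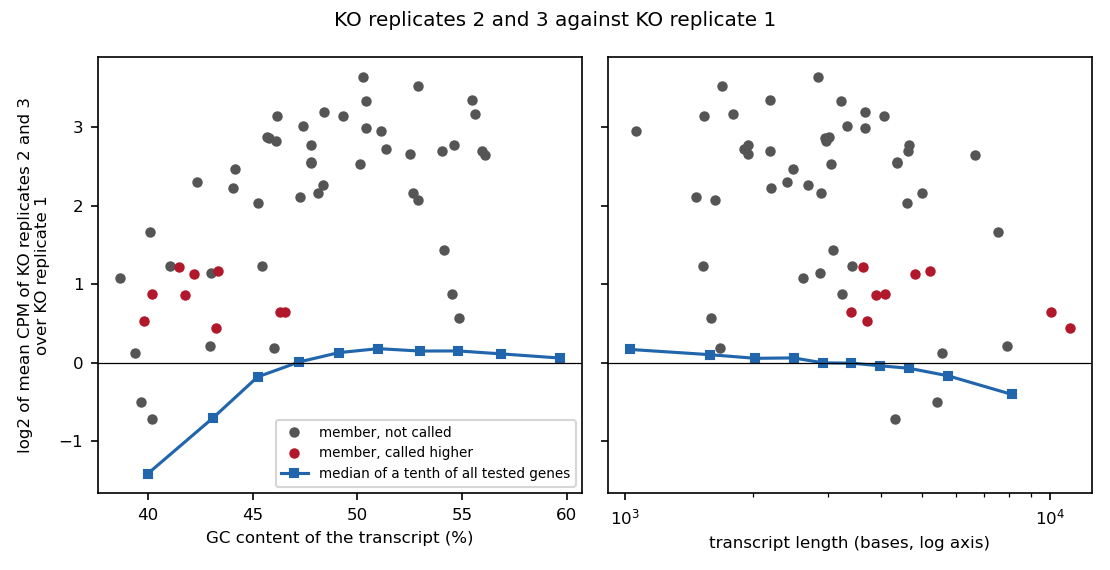
Log2 ratio of the mean of KO_2 and KO_3 to KO_1 for each of the 55 members, against transcript GC content (%, left) and transcript length (bases, log axis, right). Called members are red and members not called are grey. Blue squares joined by a line are the medians of all tested genes in each decile of the property. Members of higher GC content sit higher, and the called members sit at low GC content and long transcripts; across all genes the ratio is lowest at low GC content and nearly level above it.

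Beyond the 55 members, 6 further lists of mitotic genes held 152 tested genes. Over all 6 libraries edgeR called 5 of them higher and 1 lower, shares near those of all genes (2.26% and 1.06%). Other counts lay further from those of all genes. In 63 of the 152 all KO libraries lay above all WT libraries (18.4% of all genes), and DESeq2 called 58 higher (7.12% of all genes). Without KO_1, edgeR called 95 of 156 higher and 26 lower (23.6% and 26.0% of all genes). Some genes of these lists, such as Depdc1b and Troap, lay under the filter level of 0.554 CPM in every WT library. They were tested only because the KO libraries were higher, which favours these counts, and no count without them was made. The list of further kinetochore and centromere genes had 1 called member of 35, Knl1, the scaffold that recruits the NDC80 complex, at 4.51, 4.57 and 6.98 CPM in KO and 1.16, 1.10 and 1.26 CPM in WT (log2 difference 2.18, SE 0.267, adjusted p = 0.0217, edgeR). The median log2 difference of that list was 1.12. Among 41 further spindle, motor and cytokinesis genes, Fam83d, Kif14 and Aspm rose, Tacc2 fell, and the median was 1.74. Aspm, a spindle pole protein, was at 3.03, 4.62 and 10.6 CPM in KO and 0.465, 0.635 and 0.601 CPM in WT (adjusted p = 0.0403). Kif14, a cytokinesis kinesin, was at 2.04, 9.04 and 8.55 CPM in KO and 0.116, 0.462 and 0.240 CPM in WT. Fam83d, a spindle protein, was at 1.43, 7.80 and 9.23 CPM in KO and 0.174, 0.0578 and 0.1802 CPM in WT. Both had few control counts: 14 in WT against 377 in KO for Kif14 and 7 against 355 for Fam83d, ratios of 24.2 (exact 95% interval 14.3 to 44.8) and 45.7 (21.9 to 114). Every WT library of Kif14 and Fam83d, and WT_1 of Aspm, lay under the filter level of 0.554 CPM. These genes were thus tested only because the KO libraries were higher, and their calls carry that limit. Tacc2, a centrosomal relative of Tacc3, was at 11.5, 10.2 and 10.8 CPM in KO and 16.9, 19.5 and 18.4 CPM in WT (log2 difference -0.75, SE 0.118, adjusted p = 0.0380).

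The cohesin and condensin list had a median below 0, a log2 difference of -0.72 over 17 genes. Esco2, the acetyltransferase that fastens cohesin in S phase, was the single called member and rose, at 0.936, 2.88 and 3.08 CPM in KO and 0.174, 0.173 and 0.240 CPM in WT. Its totals were 132 counts in KO and 10 in WT (ratio 11.9, exact 95% interval 6.26 to 25.4). Every WT library of Esco2 lay under the filter level of 0.554 CPM, so it too was tested only because the KO libraries were higher. Smc3, a core subunit of the cohesin ring, was named after its values were seen: it was at 41.5, 5.08 and 12.4 CPM in KO and 33.5, 32.3 and 38.9 CPM in WT. KO_1 was level with the controls there, while KO_2 and KO_3 were low. Without KO_1, 5 genes of the list were called higher and 11 lower (23.6% and 26.0% of all genes), with a median of -1.47. With GC content and length corrected as well, 5 were higher and 10 lower (22.9% and 30.9% of all genes), with a median of -0.61.

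The other 3 lists held no called gene: the anaphase-promoting complex with its regulators (0 of 18, median log2 difference 0.20), further entry kinases, phosphatases and CDK partners (0 of 19, median 0.41), and the DREAM and MuvB complex with E2F factors (0 of 22, median 0.04). The gene with the smallest p in the first was Fzr1, the other activator of the complex, at 29.0, 35.9 and 37.8 CPM in KO and 23.1, 23.9 and 20.2 CPM in WT (adjusted p = 0.0718, edgeR). In the second it was Cdca3, at 6.71, 46.9 and 40.3 CPM in KO and 2.62, 2.77 and 3.003 CPM in WT (adjusted p = 0.0668). In the third it was the transcription factor E2f2, at 64.6, 54.8 and 45.2 CPM in KO and 36.1, 33.1 and 30.9 CPM in WT (adjusted p = 0.0638). Of the third list, 13 of 22 differences were positive. Mybl2 (B-MYB), named after its values were seen, was at 2.64, 14.1 and 11.7 CPM in KO and 1.20 to 1.74 CPM in WT (adjusted p = 0.0856). Without KO_1, edgeR called 10 of 18, 12 of 19 and 9 of 22 higher and 2, 2 and 3 lower (23.6% and 26.0% of all genes). DESeq2 called 3, 6 and 4 higher (7.12% of all genes). The list of DNA replication and S phase genes, given for comparison, had 1 called member of 38, the maintenance methyltransferase Dnmt1, at 184, 199 and 179 CPM in KO and 136, 133 and 131 CPM in WT. The median log2 difference of that list was 1.26, and in 22 of its 38 genes all KO libraries lay above all WT libraries (18.4% of all genes). DESeq2 called 23 of its genes higher (7.12% of all genes). Without KO_1, edgeR called 35 of 38 higher and 0 lower (23.6% and 26.0% of all genes). Orc1 of this list lay under the filter level of 0.554 CPM in every WT library, so it was tested only because the KO libraries were higher. The median S phase gene was at 1.17 times the WT mean in KO_1, 3.36 times in KO_2 and 2.79 times in KO_3.

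**Figure D5:**
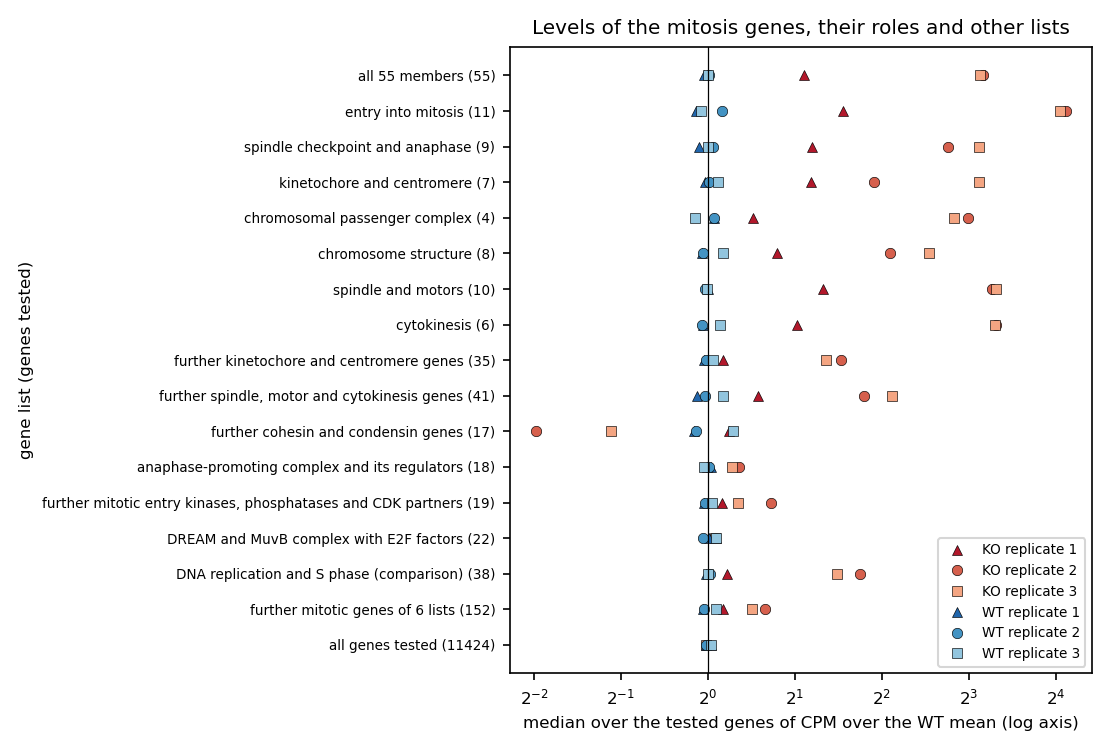
Median level of the genes of each list in each library, as a fold over the WT mean on a log axis, for the 55 members, the 6 further mitotic lists, the S phase list and all tested genes. The members stand at 2.15 in KO_1 and at 8.96 and 8.75 in KO_2 and KO_3, the S phase list at 1.17, 3.36 and 2.79, and all genes at about 1 in every library.

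Some marker lists of cell types also differed between the libraries, and not in the same order as the mitotic genes. The macrophage list was high in all 6 libraries, with 8 of 8 genes tested and a summed level of 19919 to 44711 CPM in KO and 35453 to 39818 CPM in WT. KO_1 held the lowest sum, but most of each sum was Lyz2, at 13171 CPM in KO_1 and 29743 to 36709 CPM elsewhere. Of the 8, 1 was called higher and 0 lower. It was Csf1r, at 2900, 2609 and 2573 CPM in KO and 1560 to 1567 CPM in WT (adjusted p = 0.0208, edgeR). The sum of 7 monocyte markers was 97.8 to 205 CPM in KO and 19.9 to 21.0 CPM in WT. Of these, Cx3cr1 and Spn were called higher, and Ly6c2 and Ccr2 were at 20.1 and 64.1 CPM in KO_1, where the other KO libraries had at most 2.502 CPM. Nr4a1 and Treml4 went the other way, with log2 differences of -0.29 and -0.42, and were not called (adjusted p = 0.805 and 0.338, edgeR). Nr4a1 was at 17.9, 3.75 and 3.39 CPM in KO and 9.65 to 10.8 CPM in WT. The sum of 5 dendritic cell markers was 11.01 CPM in KO_1 and at most 1.02 CPM elsewhere. Fibroblast markers (5 in the table) were at 2.15, 21.2 and 33.4 CPM in KO and 5.17 to 8.14 CPM in WT. They were highest in KO_2 and KO_3, as the mitotic genes were, but KO_1 lay below every WT library. None of the 3 fibroblast markers tested was called. Of 7 platelet and megakaryocyte markers 4 were called lower, with a sum of 16.3 to 55.2 CPM in KO and 61.8 to 107 CPM in WT. Most of the KO sum was Pf4, at 44.9, 16.2 and 14.5 CPM in KO and 17.6 to 21.8 CPM in WT. Pf4 was not called (log2 difference 0.41, adjusted p = 0.598, edgeR). B cell markers summed to at most 3.47 CPM, and Cd3e, which defines T cells, was at most 0.103 CPM in any library. The T and NK cell list summed to 3.25, 19.9 and 28.9 CPM in KO and 22.5 to 29.1 CPM in WT, almost all of it Cd4, which was at 3.03 CPM in KO_1 and 18.8 to 28.5 CPM elsewhere. Neutrophil markers summed to at most 10.8 CPM, erythroid ones to at most 5.55 CPM, eosinophil ones to at most 6.13 CPM, mast cell ones to at most 1.13 CPM and mesothelial ones to at most 0.103 CPM. Endothelial markers, mostly Vwf, summed to 74.7 to 127 CPM in KO and 78.9 to 108 CPM in WT. The part of the monocyte, dendritic and fibroblast signals in the mitotic differences was not tested.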

How the data were processed

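The authors deposited 1 table for the 6 libraries, holding 1 estimated count for each gene and library, per the file headers; 4.82% to 5.49% of the values of a library were not whole and were rounded. The authors also deposited TPM and FPKM values; TPM was used for summed levels and FPKM was not used. Its headers also name a DESeq2 comparison: of the deposited log2 fold changes, each p-value and each q-value, only the calls at a q-value under 0.05 and their direction were used. The submitters' processing notes name fastp 0.18.0 and GRCm39, but 13131 of 15426 genes matched by ID had the same start as in RefSeq GRCm38.p6. The sources used here do not give the aligner, counter or strand setting.

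Genes kept by filterByExpr (minimum count 10; 11424, with 4045 not tested) were scaled with TMM and tested with edgeR 4.0.16 by quasi-likelihood (R 4.3.3, group only, robust, Benjamini-Hochberg over all genes tested). CPM values use the TMM-scaled sizes. Alternatives were RLE factors, DESeq2 1.42.0, limma-voom (limma 3.58.1), 2 filters, a block for the replicate number, leaving out each library and, added after seeing the data, a GC content and length correction (mgcv 1.9.3). The fit was run on simulated data whose spread was taken from the WT libraries alone. Those data held no library set apart as KO_1 is, so they say nothing on calls that depend on KO_1. Intervals of count ratios are exact 95% binomial ones.

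The members, lists, motifs and alternatives were chosen with earlier results of these data known. Per-library values are given for called members and for the member with the most counts in each role; from other lists, for up to 3 called genes or the one with the smallest p. Other members named with values were chosen after these were seen. Markers came from 13 lists, and some of these genes are not reported here. Reads shared by paralogs or overlapping genes may have been split.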

Additional observations from a re-analysis of the deposited data

How the results depend on the processing

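Directions were stable and calls were not. The median log2 difference of the members, 2.70 in the main fit, kept its sign and ran from 2.41 to 3.33 under the 14 alternatives. The count of members called lower was 0 in each. The count of members called higher, 9, was 9 with RLE factors and 7 with no filter, but 49 with DESeq2, 4 with limma-voom and 2 of 34 tested at a mean of at least 10 CPM. All genes called, 379, were 376 with RLE factors, 355 with limma-voom, 293 with no filter, 1344 with DESeq2 and 229 at a mean of at least 10 CPM. With 1 library left out, members called higher ranged from 0 to 52 and all genes called from 5 to 5793; both maxima were without KO replicate 1, and the count was 0 for the members without any other library. The single reversed difference was that of Smc4, at -0.064 without KO replicate 1 and 0.42 without KO replicate 2; it was 0.87 with GC content and length corrected and 1.05 with KO replicate 1 also left out. With GC content and length corrected, chosen after seeing the data, 20 members and 718 genes were called, and 53 and 6186 with KO replicate 1 also left out. All calls were split into 258 higher and 121 lower in the main comparison, 383 and 335 with the correction, 2761 and 3032 without KO replicate 1, and 2635 and 3551 with both. The cause of these changes was not tested.

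With the replicate number as a block, 0 members and 0 genes were called, although 50 members kept an unadjusted p under 0.05. The share of all genes at that level was not counted in this fit. The labels do not say whether the numbers pair the samples. Deviations of same-numbered libraries correlated at -0.162, 0.246 and -0.271, and with 3 libraries per group these values cannot show whether they do. At this depth the controls held few counts for the lowest members, 11 for Spc24 and 17 for Cdc25c over the 3 WT libraries. The adjusted p of these 2 also depended on KO replicate 1. It was 0.0717 and 0.0852 with all 6 libraries, and 8.9e-06 and 2.7e-05 without that library (edgeR).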
